A study of Oncorhynchus mykiss with 28 samples.

Results

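In unfertilized rainbow trout eggs, 150 cDNA clones had the signals that moved most evenly with egg quality in both kinds of controlled ovulation. Egg quality was taken as the share of eggs that gave a normal alevin, in percent, scored at yolk-sac resorption, the stage when the larva has used up its yolk. For each clone, Pearson's r between log2 signal and this percentage was calculated within the photoperiod manipulation group (PM) and again within the hormonal induction group (HI). The 75 clones with the largest smaller r are called the rising clones here, since their signal was higher in better eggs. The 75 with the smallest larger r are called the falling clones. They were taken from a pool of 7865 clones. Of 9023 clone rows, 7915 had a value above 0 on all 28 arrays. Those of them that were among the 57 clones listed by the study itself were left out of the pool. The r values chose these clones, so they and the differences between poor and good eggs in PM and HI fish are given as a description with no test.

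The eggs came from 14 PM females, 10 HI females and 4 females that ovulated naturally (N). All were of an autumn-spawning strain, and each array held the RNA of eggs pooled from 1 female. PM females had been kept under an artificial photoperiod that advanced their ovulation, HI females had been injected with an analogue of gonadotropin-releasing hormone, and N females received neither. PM and N eggs were collected in 2003 and all HI eggs in 2004, so the year and the hormone treatment cannot be told apart. Normal alevins ran from 0 to 93.8% (median 38.9%) in PM females, from 2 to 95.4% (median 64.65%) in HI females and from 95.9 to 98.8% (median 97.25%) in N females. Females are numbered within a group by rising egg quality, so PM 14 gave the best PM eggs, and 1 further HI female was not analysed here.

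An unfertilized egg makes little or no new RNA. Its messengers are maternal: they were made and stored while the oocyte grew in the ovary, and they serve the embryo until its own genome becomes active. Many of them change during the last steps of oocyte maturation and while ovulated eggs wait in the body cavity, by degradation or by a change in poly(A) tail length. The files do not pair these clones with gene names, and neither does the gene table used here, so the clones are named by their spot identifiers and no role can be given to them. For the same reason the egg origin of the RNA could not be checked against marker genes of oocytes, follicle cells or blood. Because the eggs of a female were pooled, fewer eggs with a transcript and less of it per egg cannot be told apart.

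Relations with quality shared by the PM and HI groups were the smaller part of this dataset. Across 7864 clones with r in both groups, r in PM eggs and r in HI eggs correlated at -0.26 across clones, which are not independent replicates. Only 3194 clones (40.6%) had the same sign in both groups, 1524 of them positive and 1670 negative. Among the rising clones, r ran from 0.39 to 0.75 (median 0.53) in PM eggs and from 0.39 to 0.78 (median 0.48) in HI eggs. Among the falling clones, r ran from -0.80 to -0.40 (median -0.47) in PM eggs and from -0.83 to -0.40 (median -0.52) in HI eggs. Clones with opposed relations were more numerous at a like strength. With an r of at least 0.39 in size in both groups, 244 clones increased with quality in PM and decreased in HI eggs, and 348 did the opposite.

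The limits of both sets cut through a continuous range. The last rising clone inside, 1RT163L03_B_F02, had a smaller r of 0.3896, and the first outside, tcbk0045.d.24, had 0.3872. The last falling clone inside, tcab0002.e.03, had a larger r of -0.39956, against -0.39918 for tcbi0009.m.11, the first outside. No clone of the whole pool passed a test of 1 common slope in PM and HI eggs (0 of 7865 clones, 0%, limma with Benjamini-Hochberg adjustment), with a lowest adjusted p of 0.582 among the rising and 0.623 among the falling clones. At an unadjusted p under 0.05, 468 of the 7865 clones (5.95%) passed, with 69 rising and 70 falling clones among them. The choice of clones used the same values and sets the results of the rising and falling clones in this test, so nothing is read from them.

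**Figure D1:**
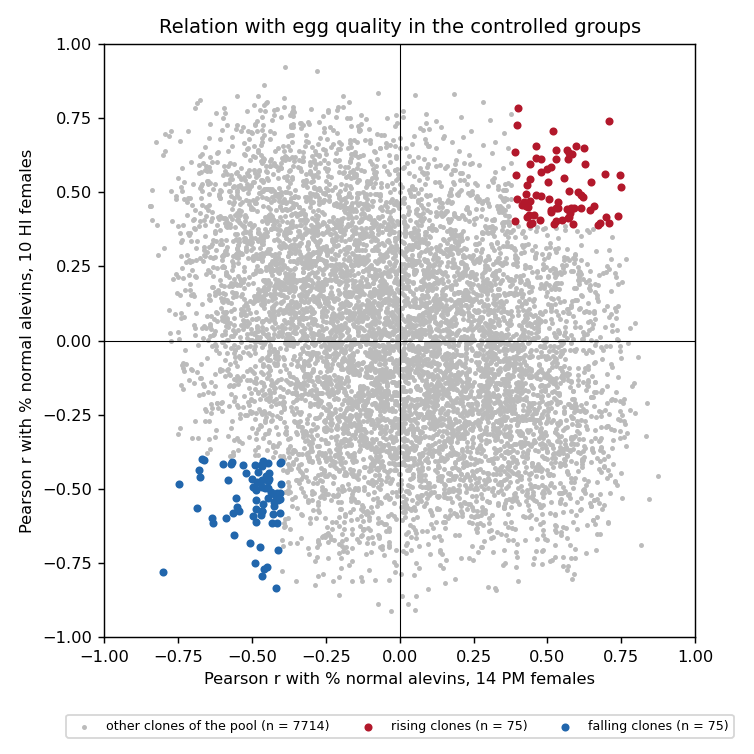
Pearson's r between the log2 signal of a clone and normal alevins in percent, in 14 PM females (horizontal axis) and 10 HI females (vertical axis), for each clone of the pool (1 point a clone). The 75 rising clones fill the upper right corner and the 75 falling clones the lower left, while the cloud as a whole leans the other way (correlation -0.26).

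The differences behind these relations were small. Poor eggs are those with fewer than 50% normal alevins (9 PM and 5 HI females), and good eggs those with more (5 PM and 5 HI females). The median rising clone had a poor-to-good ratio of 0.81 in PM eggs, with a range over the 75 clones from 0.61 to 0.96. In HI eggs it had 0.89, with a range from 0.69 to 0.97. The median falling clone had a ratio of 1.15 in PM eggs (range 1.04 to 1.48) and of 1.15 in HI eggs (range 1.04 to 1.39). Per 10 percentage points of normal alevins, the median rising clone gained 0.04 log2 in PM and 0.03 log2 in HI eggs. The median falling clone changed by -0.03 log2 in each. The extremes in PM eggs were the ratios of 1RT165A10_C_A05 among the rising clones (0.61 in PM and 0.95 in HI eggs) and tcbk0018.e.07 among the falling clones (1.48 and 1.30), both picked out after their values were seen.

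Poor and good eggs overlapped in nearly every clone. In PM eggs they overlapped in all 75 rising and all 75 falling clones, where 0.203% of the pool had all good eggs above all poor eggs and 0.47% had them below. In HI eggs 1 rising clone did not overlap (0.305% of the pool) and 0 falling clones (0.356% of the pool). The relation used to choose the clones enters these counts, so nothing is read from them. That clone was 1RT132I09_A_E05, with log2 signals from 0.10 to 0.23 in poor HI eggs and from 0.26 to 0.76 in good HI eggs. Its PM eggs overlapped, from -0.02 to 0.60 in poor and from 0.15 to 0.65 in good eggs, and its N eggs had 0.21, 0.26, 0.27 and 0.47.

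The leading rising clone was 1RT39A05_A_A03, with r of 0.71 in PM and 0.74 in HI eggs. Its log2 signal in poor PM eggs was -1.55 at the lowest, -1.44 at the median and -0.78 at the highest, and in good PM eggs -1.05, -0.75 and -0.56. In poor HI eggs it ran from -1.09 through a median of -0.88 to -0.61, and in good HI eggs from -0.95 through -0.52 to -0.51. Poor eggs were mostly lower, with PM 9 and HI 5 as the highest poor eggs and HI 9 as the lowest good HI egg. Poor PM eggs lay below poor HI eggs at the median. The N eggs, which were not used in the choice, had -1.11, -0.28, -0.85 and -0.74. N 2 was above every PM and HI egg and N 1 lay among poor eggs, and the SD was 0.36 over the 14 PM eggs, 0.23 over the 10 HI eggs and 0.35 over the 4 N eggs.

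1RT45E01_A_C01 followed, with r of 0.62 in PM and 0.65 in HI eggs. In poor PM eggs its log2 signal was -0.10, 1.11 and 1.496 (lowest, median and highest), and in good PM eggs 1.08, 1.33 and 1.71. In poor HI eggs it was -0.38, 0.35 and 1.15, and in good HI eggs 0.46, 1.11 and 1.19. A few poor eggs with very low signals stood apart here, and the highest poor eggs were as high as good eggs. N eggs had 1.45, 0.35, 1.05 and 0.88, so that N 2 was as low as the median poor HI egg.

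tcay0015.l.10, the third rising clone, had r of 0.60 in PM and 0.66 in HI eggs. Its log2 signal was 1.06, 1.49 and 2.16 in poor PM eggs and 1.88, 2.29 and 2.71 in good PM eggs. It was 1.39, 1.57 and 2.16 in poor HI eggs and 1.73, 2.31 and 2.38 in good HI eggs. Only PM 7 among the poor PM eggs, at 2.16, reached the range of the good ones. All 4 N eggs, at 1.43, 1.73, 1.30 and 1.78, were below all 5 good PM eggs. N 4, however, was above the lowest good HI egg, HI 9. The relation with quality within PM and HI eggs chose this clone. The N eggs had the highest quality of all, but their mean signal was like that of poor eggs. It was 1.56 ± 0.23 (SD, n = 4), against a mean of 1.57 in poor PM eggs and 1.74 in poor HI eggs. The difference from N was 0.24 (standard error 0.21) for PM and 0.39 (standard error 0.22) for HI eggs, with adjusted p of 0.839 and 0.723 (limma).

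The next 7 rising clones were 1RT149G24_C_D12, 1RT85D03_B_B02, tcav0005.f.01, tcay0034.e.13, 1RT161G19_A_D10, tcad0004.e.13 and tcad0009.l.07. Their r ran from 0.57 to 0.75 in PM eggs and from 0.56 to 0.64 in HI eggs. The poor-to-good ratio of tcad0004.e.13 was 0.62 in PM and 0.88 in HI eggs, and that of tcad0009.l.07 was 0.84 in both. N eggs split these clones. The N mean of tcad0004.e.13 (1.38) and of tcav0005.f.01 (0.68) lay below the mean of poor eggs, with differences of -0.27 and -0.14. That of 1RT85D03_B_B02 (0.29) was 0.01 above the mean of good eggs, and that of tcad0009.l.07 (1.74) lay -0.03 from it. For 1RT149G24_C_D12 the N mean also lay below the mean of poor eggs. For tcay0034.e.13 and 1RT161G19_A_D10 it lay between the poor and good means, nearer poor eggs in the former and nearer good eggs in the latter.

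Among the falling clones, 1RT117K01_A_F01 had the strongest relation, with r of -0.80 in PM and -0.78 in HI eggs. Its log2 signal was 1.99, 2.07 and 2.37 in poor PM eggs (lowest, median and highest) and 1.74, 1.92 and 2.04 in good PM eggs. It was 2.11, 2.21 and 2.38 in poor HI eggs and 1.93, 2.05 and 2.11 in good HI eggs. The ranges met only at their edges, and the change was small, with poor-to-good ratios of 1.18 in PM and 1.16 in HI eggs. N eggs had 2.00, 2.27, 2.04 and 2.19, a mean of 2.13 ± 0.13 (SD, n = 4), which was 0.18 above the good PM and HI eggs and -0.03 from the poor ones.

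tcbi0009.g.03 had r of -0.63 in PM and -0.61 in HI eggs. Its log2 signal was -1.79, -1.48 and -1.33 in poor PM eggs and -2.07, -1.91 and -1.47 in good PM eggs. It was -1.71, -1.26 and -1.13 in poor HI eggs and -1.73, -1.65 and -1.53 in good HI eggs. In good PM eggs it was at its lowest of all classes, and only PM 10 among them reached the level of most poor eggs. N eggs had -1.58, -1.55, -1.42 and -1.67 and their mean of -1.55 lay between the poor and good means.

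For tcbk0034.d.18, r was -0.64 in PM and -0.60 in HI eggs. Its log2 signal was -0.90, -0.79 and -0.59 in poor PM eggs and -1.09, -0.99 and -0.57 in good PM eggs, and PM 10 again was the good egg with the high value. It was -0.86, -0.82 and -0.52 in poor HI eggs and -1.10, -0.93 and -0.77 in good HI eggs. N eggs had -0.65, -0.81, -0.77 and -0.95, a mean of -0.80 that was 0.13 above good eggs. In the next 7 falling clones, tcbk0053.c.19, tcay0009.m.03, 1RT82A16_C_A08, tcac0002.j.20, tcad0001.m.05, tcbk0018.l.14 and tcbk0044.d.16, r ran from -0.69 to -0.54 in PM eggs and from -0.66 to -0.53 in HI eggs. The N mean of each of these 10 leading falling clones was above its mean in good eggs, by 0.08 to 0.24 log2, and at or below its mean in poor eggs.

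**Figure D2:**
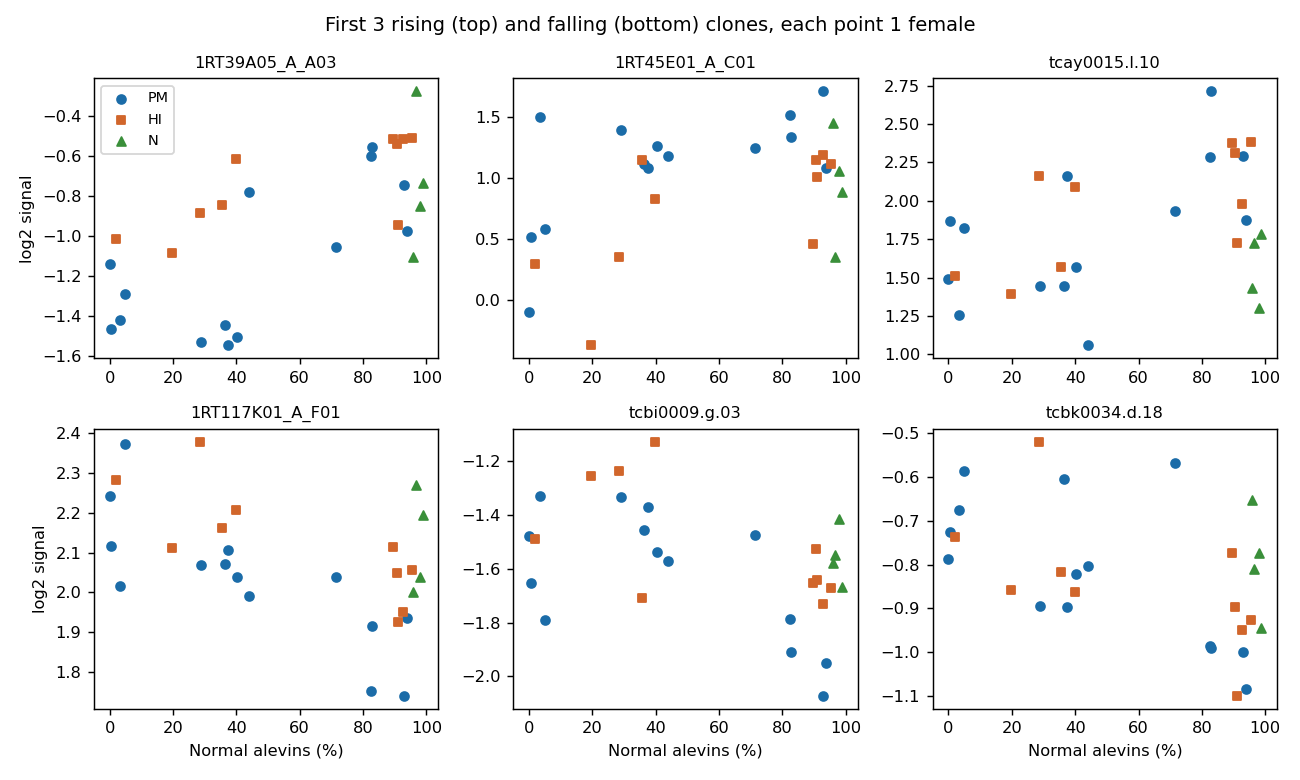
Log2 signal (vertical axes) against the percentage of normal alevins (horizontal axes) for the first 3 rising clones (top row) and the first 3 falling clones (bottom row), 1 point a female, with 14 PM, 10 HI and 4 N females. N eggs of tcay0015.l.10 (1.30 to 1.78) lie below all 5 good PM eggs, and N eggs of 1RT117K01_A_F01 (2.00 to 2.27) lie above 4 of the 5 good PM eggs.

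Averaged over the 75 rising clones, a female's log2 signal was 0.35 to 0.64 in poor PM eggs and 0.57 to 0.99 in good PM eggs. It was 0.47 to 0.74 in poor HI eggs and 0.67 to 0.82 in good HI eggs. These values were used in the choice of the clones and only describe it. PM 10, with 71.5% normal alevins, had 0.57, like poor eggs, and PM 11 to PM 14, from 82.5% upwards, had 0.79 to 0.99. Among the 9 poor PM females alone, a part of the females used in the choice, r with quality was positive in 33 of the 75 rising clones (44%, median r -0.10). Over all clones it was positive in 49.3% (median -0.005). Within HI eggs the 2 poorest females had 0.47 and 0.48, the other 3 poor females 0.63 to 0.74 and the good ones 0.67 to 0.82.

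The mean log2 signal of the falling clones, likewise a description of the choice, was 0.20 to 0.47 in poor PM eggs and 0.04 to 0.31 in good PM eggs, and it was 0.30 to 0.51 in poor HI eggs and 0.12 to 0.27 in good HI eggs. The 4 PM females below 10% normal alevins had 0.42 ± 0.07 (SD), the 5 from 10 to 50% had 0.30 ± 0.07, and the 4 best had 0.10 ± 0.05. Among the 9 poor PM females alone, r with quality was negative in 64 of the 75 falling clones (median -0.34), a sign that the choice over all 14 PM females favours. Over all clones it was negative in 3984 of 7864 (median -0.005). Poor and good HI eggs did not overlap in this mean, and the good PM egg that reached into the poor range was PM 10.

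**Figure D3:**
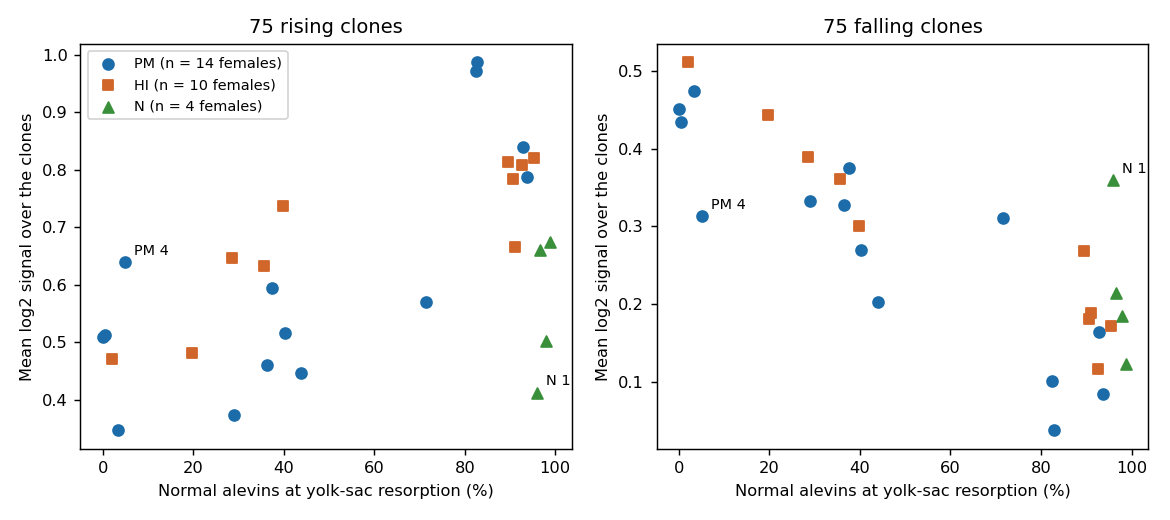
Mean log2 signal over the 75 rising clones (left) and the 75 falling clones (right) in each female, against the percentage of normal alevins, for 14 PM, 10 HI and 4 N females (1 point each). The relation within PM and HI females is set by the choice of clones, while the N points were not used for it. N 1 and PM 4 share a female number.

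Other readings of egg quality come from the same females, and normal alevins were calculated from survival and malformations. The choice of clones therefore favours the signs given here, and nothing is read from them. The percentage of eyed embryos, scored at an earlier stage, had a positive r with all 75 rising clones in PM and in HI eggs. Its r was negative with all 75 falling clones in PM eggs and with 73 in HI eggs. Over all clones, 47.7% had a positive r with it in PM and 51.9% in HI eggs. The percentage of malformed alevins had a negative r with 69 rising clones in PM eggs (13 females) and with 55 in HI eggs. With it, 72 falling clones had a positive r in PM eggs and 57 in HI eggs, against 50.8% and 49.6% of all clones. In 5 females that lost their eggs early (under 10% eyed embryos) the falling clones averaged 0.44 ± 0.07 (SD) and the rising clones 0.50 ± 0.10. In 4 females with at least 80% eyed embryos but under 50% normal alevins the falling clones averaged 0.31 ± 0.09 and the rising clones 0.56 ± 0.10. The percentage of malformed alevins was 3.5% in PM 8 and 14.3% in PM 9, but 55.6% in HI 3 and 40.9% in HI 4. Late death and malformation are thus mixed in this class. Good eggs had 0.16 ± 0.08 for the falling and 0.80 ± 0.12 for the rising clones (n = 10), a difference from poor eggs that the choice of clones sets. Females with early loss also gave fewer normal alevins than the 4 with at least 80% eyed embryos, so the choice enters that difference too.

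The N eggs are the group outside the choice of clones, and all 4 had better quality than any PM or HI egg. They did not have the highest signals of the rising clones. The mean over the 75 rising clones was 0.41, 0.66, 0.50 and 0.68 in N 1 to N 4, or 0.56 ± 0.13 (SD, n = 4). Poor PM and HI eggs had 0.53 ± 0.11 (n = 14) and good PM and HI eggs 0.80 ± 0.12 (n = 10), so that the N mean lay nearer the poor mean. The choice of clones sets the gap between poor and good means, so the place of N eggs against it is only a description. Over single clones, the N mean was nearer the good than the poor mean in 22 of 75 rising clones (29.3%). Over all 1524 clones with a positive r in both groups, the N mean was nearer the good eggs in 53.5%. It was beyond the poor mean in 30 rising clones (40%, against 32.3% of those 1524), between both means in 35 and beyond the good mean in 10 (13.3%, against 37.5%). The median poor minus good difference was -0.25 log2 in the rising clones and -0.09 in those 1524. The choice of clones made the wider gap, so these shares are not on a like scale.

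For the falling clones the place of N eggs depended on single N eggs. The mean over the 75 clones was 0.36, 0.21, 0.19 and 0.12 in N 1 to N 4, or 0.22 ± 0.10 (SD, n = 4), against 0.37 ± 0.09 in poor and 0.16 ± 0.08 in good PM and HI eggs. The N mean was nearer the good eggs in 42 of 75 clones (56%), close to the 51.9% of all 1670 clones with a negative r in both groups. It was beyond the good mean in 24 clones, between in 44 and beyond the poor mean in 7 (9.33%, against 31.4%). The median poor minus good difference was 0.20 log2 in the falling clones and 0.10 in those 1670, so these shares too are not on a like scale. The median falling clone had an N mean 0.08 above good eggs and -0.12 from poor eggs, whereas the median rising clone had an N mean -0.19 from good eggs and 0.05 above poor eggs. Without N 1, the N mean was nearer the good eggs in 32 rising clones (58.1% of the 1524) and in 55 falling clones (58.3% of the 1670). Without N 4 it was nearer the good eggs in 23 rising clones (49.9%) and in 34 falling clones (46.3%).

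**Figure D4:**
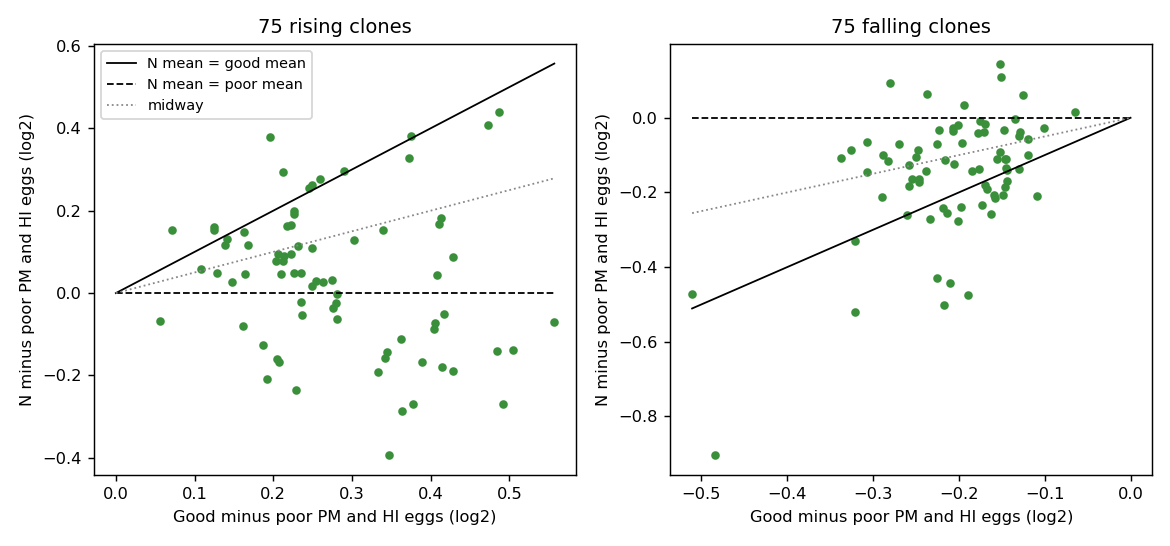
Mean of the 4 N eggs minus the mean of poor PM and HI eggs (vertical axes, log2) against the mean of good minus poor PM and HI eggs (horizontal axes, log2), 1 point a clone, for 75 rising (left) and 75 falling clones (right). Points on the solid line have the N level of good eggs and points on the dashed line that of poor eggs. Of the rising clones, 30 are below the dashed line and 10 above the solid line.

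N 1 had the lowest mean of the rising clones and the highest of the falling clones among the N eggs, and its array correlated at 0.947 on average with the other N arrays and at 0.962 with the PM arrays. The labels give N 1 and PM 4 a shared female number. PM 4 had the highest rising mean of the 9 poor PM females (0.64) and the lowest falling mean of the 4 PM females below 10% (0.31), and its array correlated at 0.959 with the other PM arrays and at 0.961 with the N arrays. Such averages are not given for the other arrays, so whether N 1 and PM 4 stand out in them was not tested. Over all pairs of arrays, r ran from 0.917 to 0.978. An exchange of these samples was not tested. The spread of the arrays also moved with the rising clones. The interquartile range of log2 signal before normalization was 1.75, 1.39, 1.60 and 1.42 on N 1 to N 4, where the rising mean was 0.41, 0.66, 0.50 and 0.68. Over the 14 PM arrays, r of a clone with the interquartile range was negative in 67 of 75 rising clones (median -0.53) and positive in 71 falling clones (median 0.37), with a median of 0.04 over all clones. Over the 10 HI arrays these medians were -0.12 for the rising and -0.0017 for the falling clones. Egg quality itself correlated with the interquartile range at r = -0.38 in PM females (rho = -0.41, two-sided permutation p = 0.174 and 0.151, adjusted p = 0.347 and 0.301 over 4 relations). Without the 2 PM females whose egg quality was farthest from the group median, r was -0.46. In HI females r was -0.11 (rho = -0.15, permutation p = 0.763 and 0.682, adjusted p = 0.763 and 0.682). Without the 2 HI females whose egg quality was farthest from the group median, r was -0.38. The other relations were with the number of clones above 0 on an array. In PM females r was 0.44 (rho = 0.50, permutation p = 0.115 and 0.0714, adjusted p = 0.347 and 0.285). Without the same 2 PM females it was 0.20. In HI females r was -0.11 (rho = -0.25, permutation p = 0.757 and 0.492, adjusted p = 0.763 and 0.656). Without the same 2 HI females it was 0.14. The part of array spread in the rising and falling clones was not tested.

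No rising or falling clone passed the test against N eggs across all clones. In PM minus N, 0 of 7865 clones (0%) passed an adjusted p of 0.05 (limma, Benjamini-Hochberg), and in HI minus N also 0 (0%). The PM mean was above the N mean in 42 rising and 45 falling clones (50.4% of the pool) and below it in 33 and 30 (49.6%). The HI mean was above the N mean in 48 rising and 47 falling clones (46.6% of the pool) and below it in 27 and 28 (53.4%). At an unadjusted p under 0.05, 6 rising clones were higher and 4 lower in PM than in N eggs, where 3.24% of the pool were higher and 3.65% lower. Of the falling clones 4 were higher and 0 lower. Between HI and N eggs, 12 rising clones (16%) were higher and 0 lower at that level, where 3.19% of the pool were higher and 3.9% lower, and 7 falling clones were higher and 3 lower. Both comparisons share the N arrays. Without N 1, PM minus N had 0 higher and 7 lower rising and 10 higher and 0 lower falling clones at that level. Of the pool, 5.82% were higher and 5.43% lower there. HI minus N had 6 higher and 2 lower rising and 8 higher and 1 lower falling clones (pool 2.72% and 3.09%). The interquartile range of the array was also used as a covariate. PM minus N then had 16 higher and 1 lower rising and 3 higher and 1 lower falling clones (pool 2.38% and 2.96%). HI minus N had 7 higher and 3 lower rising and 8 higher and 1 lower falling clones (pool 3.15% and 4.11%). In either, 0 clones of the pool were called.

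The largest departure from N among the rising clones was that of tcay0015.p.09, picked out after its values were seen. Its mean was 2.53 in poor and 2.88 in good PM and HI eggs, while N eggs had 1.83, 2.48, 1.98 and 2.25. The difference from N was 0.47 (standard error 0.17) in PM and 0.63 (standard error 0.18) in HI eggs, with adjusted p of 0.696 and 0.5004 (limma). Among the falling clones, tcbk0018.e.07 had a mean of 0.70 in poor and 0.22 in good eggs and 1.01, -0.34, -0.61 and -0.87 in N eggs. Its N 1 value was thus above the poor mean, and the other N eggs were below the good mean.

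Between the controlled groups, rising clones were more often higher in HI eggs. Both groups were used in the choice of clones. The rising clones were chosen for a higher signal in better eggs, and median normal alevins were 64.65% in HI and 38.9% in PM females. Whether this enters the count was not tested, so nothing is read from it. The HI mean was above the PM mean in 55 of 75 rising clones (median difference 0.07 log2) and in 39 of 75 falling clones (median 0.02), against 48.2% of the pool, and below it in 20 and 36 (51.8% of the pool). Of the 7865 clones, 193 were called (2.45%, limma with adjusted p under 0.05), 55 higher and 138 lower in HI eggs. None of the rising clones was called, with 8 higher and 3 lower at an unadjusted p under 0.05, where 8.46% of the pool were higher and 11.9% lower. Of the falling clones 8 were higher and 9 lower at that level. The falling clone tcay0018.j.08 was called lower (1 of 75, where 1.75% of the pool was called lower). Its log2 signal was 0.39, 0.70 and 0.74 in HI eggs (lowest, median and highest) and 0.62, 0.91 and 0.99 in PM eggs, a difference of -0.24 (standard error 0.06, adjusted p = 0.0405). Its N eggs had 0.75, 0.43, 0.82 and 0.65. With the interquartile range of the array as a covariate, 0 clones of the pool were called. The HI minus PM difference adjusted for it was positive in 20 rising clones and negative in 55.

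The rising clones were brighter spots than most. Their median log2 signal was 0.65, with 31 of 75 (41.3%) in the brightest 20% of the pool. Falling clones had a median of 0.08 with 18 (24%) there, and the median of the pool was -0.09. The brightest rising clone, 1RT165A10_C_A05, averaged 3.99 ± 0.43 (SD) in PM eggs, 4.07 ± 0.20 in HI eggs and 3.66 ± 0.22 in N eggs. The brightest falling clone, 1RT129O11_A_H06, averaged 5.01 ± 0.48 in PM, 4.85 ± 0.20 in HI and 4.74 ± 0.16 in N eggs. The authors corrected the signals for spotted DNA. Whether levels of different clones can then be compared was not tested, so they are given as no order of transcript abundance.

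The sets also differed in the prefix of the clone name. Clones named tcbk made up 22.3% of the pool but 2 of the 75 rising clones and 23 of the 75 falling clones (30.7%). Clones named tcay made up 16.6% of the pool, 19 of the rising clones (25.3%) and 10 of the falling clones. Those named 1RT made up 36.1% of the pool, 30 of the rising (40%) and 21 of the falling clones. The prefixes differ in brightness too, with a median log2 signal of -0.63 for tcbk, -0.23 for tcay and 0.23 for 1RT clones. Rising clones came from 56 plates, as read from the clone names, and falling clones from 62. The most on a single plate were 4 rising clones of tcay0010 (o.20, o.21, o.16 and p.10, of 36 in the pool), and tcad0009 held 3 rising clones and 1 falling clone of 60.

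**Figure D5:**
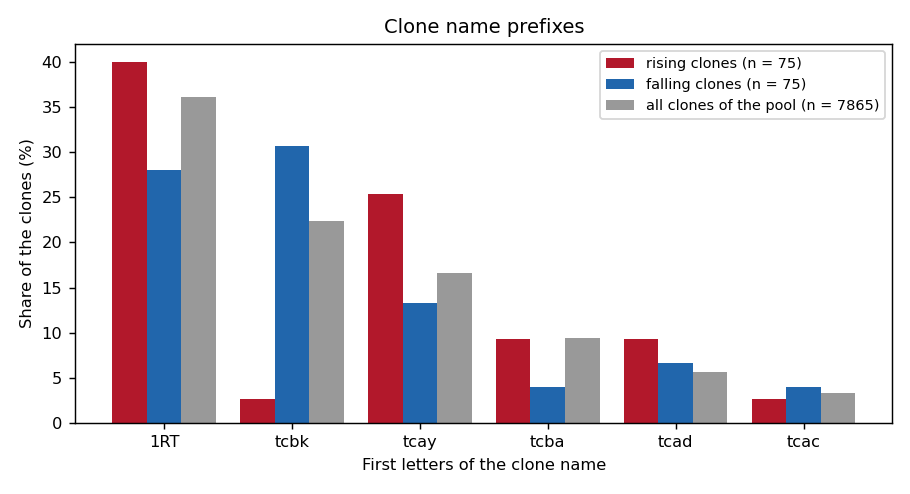
Share of the 75 rising clones, the 75 falling clones and the 7865 clones of the pool (vertical axis, percent) by the first letters of the clone name, for the 6 most frequent prefixes. The tcbk clones are 22.3% of the pool, 2.67% of the rising and 30.7% of the falling clones.

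Some of the rising clones also varied together after a straight line on quality was taken out. After group means and each group's own slope on quality were taken out over the 24 PM and HI females, the mean pairwise r was 0.20 among rising clones, 0.05 among falling clones, -0.06 between the sets and 0.0004 over all clones. A relation with quality that is not a straight line, and the spread of the arrays, stay in these residuals, and their part was not tested. Of 2775 pairs of rising clones 41 had a residual r above 0.8, against 5 of 2775 pairs of falling clones. The highest pair reached 0.90 among the rising and 0.91 among the falling clones, and whether such pairs are copies of the same transcript was not tested. The 4 rising clones of plate tcay0010 were not alike in this measure, with residual r from -0.39 to 0.65.

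Of the named clones that the study had listed as linked to egg quality, chosen on these same samples, 29 had a value on all arrays and 8 met the same limits. TF, the iron carrier transferrin, had r of 0.49 in PM and 0.58 in HI eggs. LAMB2, a laminin chain of basement membranes, had 0.55 and 0.51, and DCPS, the scavenger enzyme that degrades the cap of decayed messengers, 0.64 and 0.47. CF188, PDCL3 and TLE1, a transcriptional corepressor, were the other 3 with rising signals. PHB2, a prohibitin of the inner mitochondrial membrane, had -0.70 and -0.67 and would have been the second of the falling clones, and GMCL1 had -0.53 and -0.71. The study held its listed clones as candidates at a high false discovery rate. It measured some by real-time PCR, with DCPS, CF188, TLE1 and GMCL1 among them, and only PHB2 correlated significantly with egg quality there. The study chose its listed clones by egg quality over all samples or inside the HI or PM group. N eggs could thus enter that choice, and nothing is read from their place in these clones beside the rising clones. Of the 6 with rising signals, 4 had an N mean beyond the good mean. LAMB2 averaged -1.82 in poor and -1.54 in good PM and HI eggs, with -1.29 ± 0.63 (SD, n = 4) in N eggs. CF188 averaged -1.40 in poor and -1.23 in good eggs, with -1.16 ± 0.14 in N eggs. TLE1 averaged 1.55 in poor and 1.67 in good eggs, with 1.70 ± 0.14 in N eggs. In DCPS the N mean of -1.57 ± 0.14 was level with the good mean (-1.57, against -1.81 in poor eggs). TF averaged 0.12 in poor and 0.33 in good eggs, with 0.10 ± 0.15 in N eggs, and PDCL3 averaged 0.56 in poor and 0.69 in good eggs, with 0.58 ± 0.17 in N eggs. For PHB2 the mean was -0.02 in poor and -0.20 in good eggs, and its N eggs (-0.16 ± 0.22) had an SD as large as that gap. None of the 21 listed clones that the study had picked for a difference between ovulation groups met the limits. Only 150 of the 7865 clones of the pool met them, so nothing is read from this.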

How the data were processed

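The deposited values are linear spot intensities of P33-labelled cDNA, made from egg RNA, on nylon cDNA arrays. The authors used a vector oligonucleotide hybridization to correct for spotted DNA and scaled each array to its median. No source used here gives how duplicate spots were combined. Of 9216 rows, 193 that name no clone were left out, which left 9023. Of these, 7915 had values above 0 on all 28 arrays. The 7865 of them that were not among the 57 clones listed by the study were taken as log2 and quantile normalized together. After this 1 clone was constant in PM eggs and had no r. A value of 0 (6.59% of clone values) has no log2, and what it marks was not tested. Clones above 0 numbered 8146 to 8655 on PM, 8229 to 8547 on HI and 8241 to 8626 on N arrays, and the number of arrays limits the precision.

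Groups were compared in 1 fit of 3 group means with limma 3.58.1 (R 4.3.3), with Benjamini-Hochberg adjustment over 7865 clones. Relations of quality with array measures were tested by permutation (100000 resamples). The scripts were tested on simulated data, and figures were drawn with matplotlib 3.10.9. Alternatives covered the normalization, the filter on low values, the variance model, array weights, array spread as a covariate, Spearman's rho, eyed embryos, a replicate block and left-out arrays. The clones and lists were chosen with earlier results of these data known. Named are the first 10 clones of each set, those called in a group comparison, those at the limits and plates with 3 or more clones of a set. Sequences and gene names of these clones were not used here.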

Additional observations from a re-analysis of the deposited data

Results flagged for a closer look

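In 46 sets of HI or N values (the named clones, the means of the rising and falling clones and the spread of the arrays), 2 held an N egg far from the other 3, and chance gives about 1 in 20 such sets. The falling clone tcay0009.m.03 had a log2 signal of 0.35 in N 1, where the nearest other N egg had 0.02. The falling clone tcbk0044.d.16 had -1.45 in N 4, where the nearest other N egg had -1.06.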

How the results depend on the processing

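The make-up of both sets depended on processing. Every clone kept the sign of both r in every reselection except 2 falling clones with eyed embryos as the measure. The choice of clones by their r in these same females favours a kept sign, so nothing is read from this. The number of the 75 rising and 75 falling clones chosen again was 53 and 47 on log2 signal as deposited, 51 and 48 on linear signal, 34 and 40 with Spearman's rho, 29 and 28 with eyed embryos, and 51 and 34 given the interquartile range of the array. Leaving out each PM and HI female in turn gave 37 to 73 rising and 34 to 72 falling clones, with the lowest counts without HI 1 (37 and 34). Fewer than 50 of a set were also chosen again without HI 9 (46 rising), PM 13 (45 falling) and PM 14 (44 falling). In all 24 such fits 16 rising and 9 falling clones were chosen, 8 of the first 10 of each set among them. The causes were not tested.

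The position of N eggs was recomputed under alternatives added after seeing the data. The N mean was nearer good eggs in 21 to 32 rising and 34 to 55 falling clones when each N egg was left out in turn. With only PM eggs as poor and good it was 26 and 38, and with only HI eggs 27 and 47.

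For PM minus N the count of clones called was 2 without N 1 and 4 without N 1 and PM 4 (0 to 2 over each N egg left out). The number of rising clones with a lower PM mean was 29 to 38 and of falling clones with a higher PM mean 41 to 52 over these. For HI minus N the called count was 0 over each N egg left out, with 20 to 32 rising clones lower and 37 to 53 falling clones higher in HI eggs. HI minus PM had 434 calls on log2 signal as deposited, 309 with arrays scaled to a common spread, 590 with array weights, 0 with the interquartile range as a covariate, 303 without N 1 and PM 4, and 191 to 222 over each N egg left out.

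The replicate numbers rank females by quality and do not pair samples. Over 18 same-numbered pairs the deviations correlated from -0.34 to 0.22, with 4 pairs above 0.1. With the replicate block, the adjusted PM minus N difference was negative in 52 rising clones and positive in 72 falling clones. N eggs share numbers only with PM 1 to PM 4 (0 to 5% normal alevins) and HI 1 to HI 4 (2 to 35.6%). The block thus sets N eggs beside the poorest PM and HI eggs. The choice of clones enters these counts, so nothing is read from them. With the block, 1 clone was called in HI minus N and 46 in HI minus PM. The block was not run for the choice of clones, where no number repeats within a group.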
